A study of Mus musculus with 4 samples.

Results

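The comparison asks whether knocking down 2 related splicing regulators together did more, less or the same as adding up what each knockdown did alone. N2A cells, an established mouse neuroblastoma line, were transfected with Lipofectamine 2k complexes and held for 5 h, then cultured for 3 d. The 4 groups were cells with a control shRNA, with shptbp1, with shptbp2, and with shptbp1 and shptbp2 together, called control, Ptbp1 knockdown, Ptbp2 knockdown and double knockdown. Each group is 1 strand-specific library sequenced in paired reads of 100 bases, and the amount of each shRNA plasmid is not given in the sources used here. All 4 libraries enter every value below, and with 1 library per group no departure could be held against a spread between replicates. Intervals cover counting error only.

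The products of both genes are polypyrimidine tract-binding proteins, which bind runs of C and T (U in RNA) in and around exons and mostly block the inclusion of the exons they flank. Ptbp1 is made in most cells and in neural progenitors, and Ptbp2 takes over in developing neurons. Ptbp1 protein also promotes skipping of an exon of Ptbp2, which sends that mRNA to decay, so that loss of Ptbp1 raises Ptbp2. Because both proteins bind similar sites, an exon can stay silent while either is present and respond only when both are low.

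For each gene the departure is the log2 level of scaled exon reads in the double knockdown minus the Ptbp1 knockdown, minus the difference of the Ptbp2 knockdown and control. A value of 0 means that the effects on the log2 scale added up, and 1 or more in size (2-fold) was counted as departing. For cassette exons, which are exons that can be skipped between 2 neighbours, the same difference was taken on the natural logit of inclusion. Inclusion is the share of junction reads that join the exon rather than skip it. A departing exon had a departure of 1 or more in size, a 95% counting interval without 0, and inclusion that ranged over 10 percentage points or more between libraries. There were 10875 genes with a mean of 1 CPM (reads per M) or more, of 18884 listed, and 100167 of 180955 cassette exons had 20 or more junction reads in each library.

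Departures fell into named classes. Synergy is a double knockdown beyond each single knockdown, at least 1 unit from control, with the sign of the departure. A masked effect is a single knockdown effect of 1 or more that is under 0.5 once the other protein is also low. A reversal is a single effect of 1 or more that takes the opposite sign, again at 1 or more, in the other knockdown. Additive features had both single effects of 0.5 or more and a departure under 0.25.

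The 2 targets themselves set the frame. Ptbp1 exon reads were at 644 CPM in control, 186 with shptbp1, 732 with shptbp2 and 143 with both. Ptbp2 was at 139, 267, 37.0 and 58 CPM in the same order. Both targets were lower under their own shRNA in either background, and Ptbp2 stayed higher in the double knockdown than in the Ptbp2 knockdown. Their departures were -0.56 for Ptbp1 (-0.59 to -0.54) and -0.30 for Ptbp2 (-0.34 to -0.25), which is under the threshold. Ptbp3, the third family member, was at 151, 79.6, 90.4 and 79.9 CPM, so each single knockdown lowered it and the double knockdown went no further than the Ptbp1 knockdown (departure 0.75).

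Exon reads came to between 209.7 M and 260.9 M per library, with the fewest in the Ptbp1 knockdown. Of the 15 N2A neuroblastoma markers looked up, 12 were found, all at 1 CPM or more, with a summed level of 2246 to 2549 CPM. No astrocyte, microglia, epithelial or blood marker reached 1 CPM in any library, 3 of 5 oligodendrocyte markers did, and their sum was 19.0 to 20.4 CPM. Of 10 fibroblast and muscle markers 1 reached it. Their sum was 1.40 CPM in control, 3.06 with shptbp1, 2.99 with shptbp2 and 3.17 with both. In bulk RNA, fewer cells of a kind and less RNA per cell cannot be told apart.

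The sequences of some exons from several classes are shown first, because length and pyrimidine content are what the classes can be compared on. No exon with a masked Ptbp1 effect or with both effects masked is shown. They are coding exons on the transcript strand, from GENCODE vM21 transcripts matched by structure, in lower case, with each TCTT or CTCT in capitals. These letters are short forms of sites that polypyrimidine tract-binding proteins are known to bind. The first 7 went beyond each single knockdown (Kif1b and Nckap1 downward), the next 3 showed a Ptbp2 effect only while Ptbp1 was present, Tbc1d24 reversed, Epb41l2 departed otherwise, and the last 2 were additive.
Ap1b1 21 nt: atgggggatgagtctgaaggg
Ap2b1 42 nt: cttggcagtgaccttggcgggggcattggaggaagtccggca
Atp8a1 45 nt: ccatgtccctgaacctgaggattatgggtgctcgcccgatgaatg
Dctn1 15 nt: aggaaccacagcgag
Dlg4 110 nt: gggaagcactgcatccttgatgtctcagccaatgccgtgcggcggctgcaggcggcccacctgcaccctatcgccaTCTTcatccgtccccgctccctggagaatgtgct
Kif1b 42 nt: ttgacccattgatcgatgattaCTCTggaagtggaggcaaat
Nckap1 18 nt: caaggacaagtttggaag
Map4k4 9 nt: ggagaagtg
Ppfibp2 33 nt: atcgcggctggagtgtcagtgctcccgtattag
Golga2 81 nt: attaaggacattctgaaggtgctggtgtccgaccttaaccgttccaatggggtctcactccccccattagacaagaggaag
Tbc1d24 18 nt: tgtctcactttctaaaag
Epb41l2 63 nt: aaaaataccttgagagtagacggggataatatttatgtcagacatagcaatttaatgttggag
Ptbp2 34 nt: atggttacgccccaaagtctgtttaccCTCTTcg
Abi2 84 nt: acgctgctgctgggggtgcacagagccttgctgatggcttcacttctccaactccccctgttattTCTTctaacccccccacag

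Among all measured coding exons, 1 of the 2 motifs occurred in 12.6% of those of 27 nt or less, 29.7% of those of 28 to 60 nt, 48.9% of those of 61 to 120 nt and 71.3% of longer ones. Synergistic coding exons above additivity held it in 3 of 11, 3 of 13, 16 of 18 and 10 of 14 for the same lengths. The microexons of Ap1b1, Dctn1 and Nckap1 hold none, and only the exon itself was searched on its own strand, without the flanking introns.

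Exons departed upward far more than downward. Of the 100167 exons, 402 departed (0.401%), 313 above additivity (0.312%) and 89 below (0.0889%). Most measured exons are included in nearly every transcript, so the 2678 exons with a range of 10 points or more are a nearer frame, and 15.0% of those departed. For those 2678 the inclusion expected from additivity and the inclusion observed in the double knockdown correlated across exons (Pearson r 0.86, Spearman rho 0.82). Exons also differ from each other in all libraries alike, so these correlations are no measure of additivity. Observed inclusion was within 10 points of expectation for 55.5% of them, 10 or more points above it for 859 and as far below for 332. The median departure of these exons was 0.27, so the background itself sat above 0. With a 99% counting interval 207 exons remained above and 46 below, and with an interval that leaves 1 in 1000 outside 124 and 16.

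**Figure D1:**
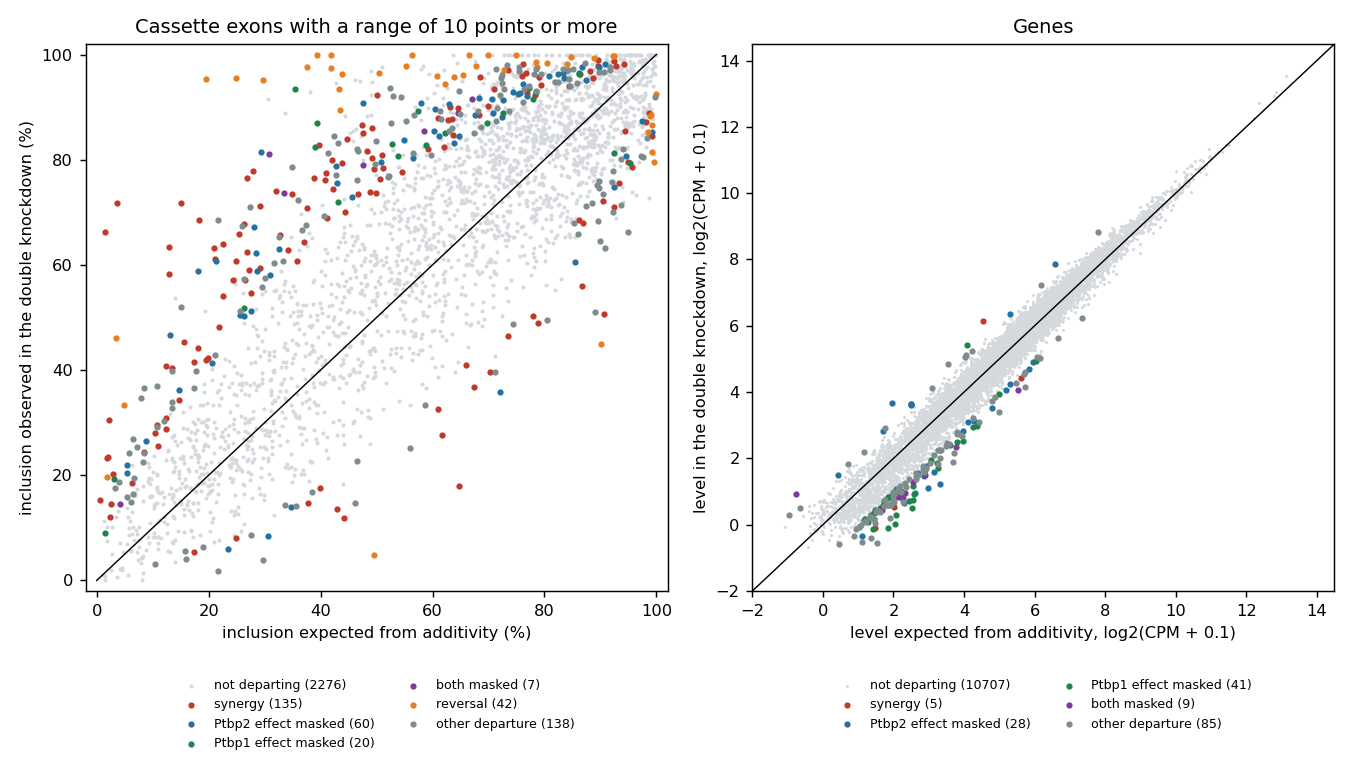
Left, inclusion (%) of each cassette exon with a range of 10 points or more in the double knockdown against the inclusion expected if both single knockdowns added on the logit scale. Right, the same for gene levels as log2(CPM + 0.1); colours are classes, the line is equality, and 313 exons departed above against 89 below, while 23 genes departed above against 145 below.

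In the 313 exons above additivity the median effect of the Ptbp2 knockdown was -0.81 with Ptbp1 present and 0.75 with Ptbp1 low. In 120 of them Ptbp2 loss lowered inclusion by 0.5 or more alone and raised it by 0.5 or more in the Ptbp1 knockdown. Another 88 had an effect under 0.5 in size alone and a rise in the Ptbp1 knockdown, and 86 had a fall alone that was under 0.5 in size in the Ptbp1 knockdown. The departure is itself the difference of these 2 effects, so its sign is fixed by the choice of exons and only the split among these patterns is descriptive. The Ptbp1 level differed with them: it was 732 CPM in the Ptbp2 knockdown against 644 in control, and 143 in the double knockdown. Its part in the exon values was not tested.

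Synergy was the most frequent of the named exon classes, with 135 exons (0.135%), 106 of them above additivity. In 87 of the 135, upward and downward cases together, the Ptbp1 knockdown sat above control and the Ptbp2 knockdown below it. In 8 the double knockdown alone stood apart from 3 similar libraries, and for those a class cannot be told apart from 1 deviating library. The upward group started low, with a median inclusion of 13.9% in control. Of its 106 exons, 17 were microexons of 27 nt or less (16.0%), against 5.67% of the exons that varied as much without departing, and 71.7% had a length divisible by 3, against 51.2%. Among its 56 fully coding exons that share was 85.7%, beside 62.0% of the 1101 coding exons that varied as much without departing. Most of the 56 can therefore be added without shifting the frame. Median pyrimidine content was 53.2% against 48.6%.

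Upward synergy included exons of membrane traffic genes. Ap1b1 encodes the large beta subunit of the clathrin adaptor AP-1, and its 21-nt exon (mm9 chr11:4933245-4933265) had an inclusion of 0.40% in control, 15.4% with shptbp1, 0.40% with shptbp2 and 71.8% with both. Additivity would give 15.1%, and the departure was 2.66 (1.53 to 3.79). Only the double knockdown had the exon in most transcripts. The 42-nt exon of Ap2b1, the matching subunit of the plasma membrane adaptor AP-2 (chr11:83178297-83178338), was at 24.0%, 41.9%, 17.0% and 74.1%, against 32.0% expected. The exons of both adaptors had the same order of libraries, with little change under Ptbp2 loss alone. Atp8a1, a lipid flippase of the same traffic routes, had a 45-nt exon at 3.34%, 50.4%, 2.63% and 85.2%, against 47.5% expected. The light chain gene Cltb, whose 54-nt exon is known from neurons, reached 24.5% in the double knockdown from 0.82%, 9.97% and 0.65%.

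Across the list for clathrin, adaptors and endocytosis, 6 of 33 exons with a range of 10 points or more departed (18.2%, beside 15.1% over all named genes), 4 above and 2 below, in 6 of 41 genes; 5 of them were synergistic. One of the downward pair was the 123-nt exon of Pacsin2, a membrane-bending endocytic protein, at 94.0%, 78.9%, 93.6% and 50.3%, against 78% expected. Here the Ptbp2 knockdown alone left inclusion as in control and the double knockdown took it down. Counted per varying exon the share is near that over all named genes, while counted per gene it was 14.6% beside 3.63%, in a list with 690 measured exons.

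Synaptic and receptor genes included Dlg4, with an exon known to be held off by both polypyrimidine tract-binding proteins before neurons mature. Dlg4 encodes PSD-95, the main scaffold of excitatory synapses, and its 110-nt exon, whose skipping shifts the frame, was at 47.3% in control, 70.9% with shptbp1, 26.3% with shptbp2 and 86.0% with both, against 49.2% expected. Gabbr1, a subunit of the metabotropic GABA receptor, had a 151-nt exon at 62.7%, 93.6%, 27.5% and 96.4%. In both genes the single knockdowns pulled in opposite directions and the double knockdown lay above the Ptbp1 knockdown. The 66-nt exon of Rims2, which organizes release sites at the presynaptic membrane, was at 3.4%, 28.3%, 3.15% and 59.1%. Over the list of postsynaptic scaffolds, 4 of 13 varying exons departed (30.8% beside 15.1% over all named genes), in 2 of 16 genes (12.5% beside 3.63%). Of these exons 2 lay above additivity and 2 below. The median departure of the list's varying exons was 0.03, beside 0.27 over all named genes. The lists for synaptic vesicles and for receptors and channels had 2 of 11 (18.2%) and 2 of 15 (13.3%), near the share over all named genes.

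Regulators of small GTPases held the most departing exons of the lists other than the list of known targets, 12 of 55 varying exons, all above additivity, in 9 of 39 genes (23.1% of genes beside 3.63% over all named genes). These genes carry many exons, 943 measured in all, and counted per varying exon the share was 21.8% beside 15.1%. Ralgapa1, a GTPase-activating protein for Ral, had a 141-nt exon at 6.82%, 53.1%, 4.07% and 76.1%. The 63-nt exon of Madd, an exchange factor for Rab3, was at 56.0%, 77.7%, 46.0% and 90.3%. Arhgef10l, a guanine nucleotide exchange factor, behaved otherwise, since its 117-nt exon stood at 14.0% in control, 24.5% and 24.3% in the single knockdowns and 76.5% in the double knockdown. Each single knockdown gave about the same small rise, and the double knockdown gave 37.6 points more than their sum on the logit scale.

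Other strong cases of synergy lay in genes of general function. Sympk, a scaffold of mRNA 3' end formation, had a noncoding 126-nt exon at 0.41%, 1.80%, 0.28% and 66.2%, so it was nearly unused in 3 libraries. Pip5k1c, which makes the phosphoinositide PIP2 at synapses and adhesions, had a 78-nt exon at 5.68%, 15.5%, 4.59% and 63.3%, against 13.0% expected. Kansl3, a subunit of a histone acetyltransferase complex, had a 78-nt exon at 41.1%, 82.6%, 12.9% and 92.4% with 546 to 930.5 junction reads, and its departure of 2.48 ran from 2.11 to 2.86. Faim, an inhibitor of apoptosis, had a 57-nt exon at 15.9%, 30.0%, 13.9% and 76.6%. Wnk1, a kinase that controls ion transport, had a 462-nt exon at 20.2%, 50.2%, 15.3% and 79.9%.

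Downward synergy involved 29 exons that began with high inclusion, at a median of 92.2% in control, which follows in part from the rule since a fall needs room. Kif1b, a kinesin that carries synaptic vesicle precursors, had a 42-nt exon at 65.9%, 72.8%, 57.1% and 17.9%, with 28 junction reads in the Ptbp2 knockdown. The 18-nt exon of Nckap1, part of the WAVE complex that starts actin branching, was at 65.5%, 64.9%, 62.5% and 27.7%. Its 3 other libraries were alike, and only the double knockdown was low. Synergy of the Nckap1 exon can therefore not be told apart from a deviation of the double knockdown library. Immt, which shapes mitochondrial cristae, had a 102-nt exon at 77.5%, 35.0%, 79.5% and 14.8%. Dpf2, a BAF chromatin-remodelling subunit, had exons in both directions: a 42-nt exon at 10.1%, 65.5%, 6.61% and 77.7%, and a 73-nt exon at 94.6%, 69.4%, 96.7% and 48.9%.

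**Figure D2:**
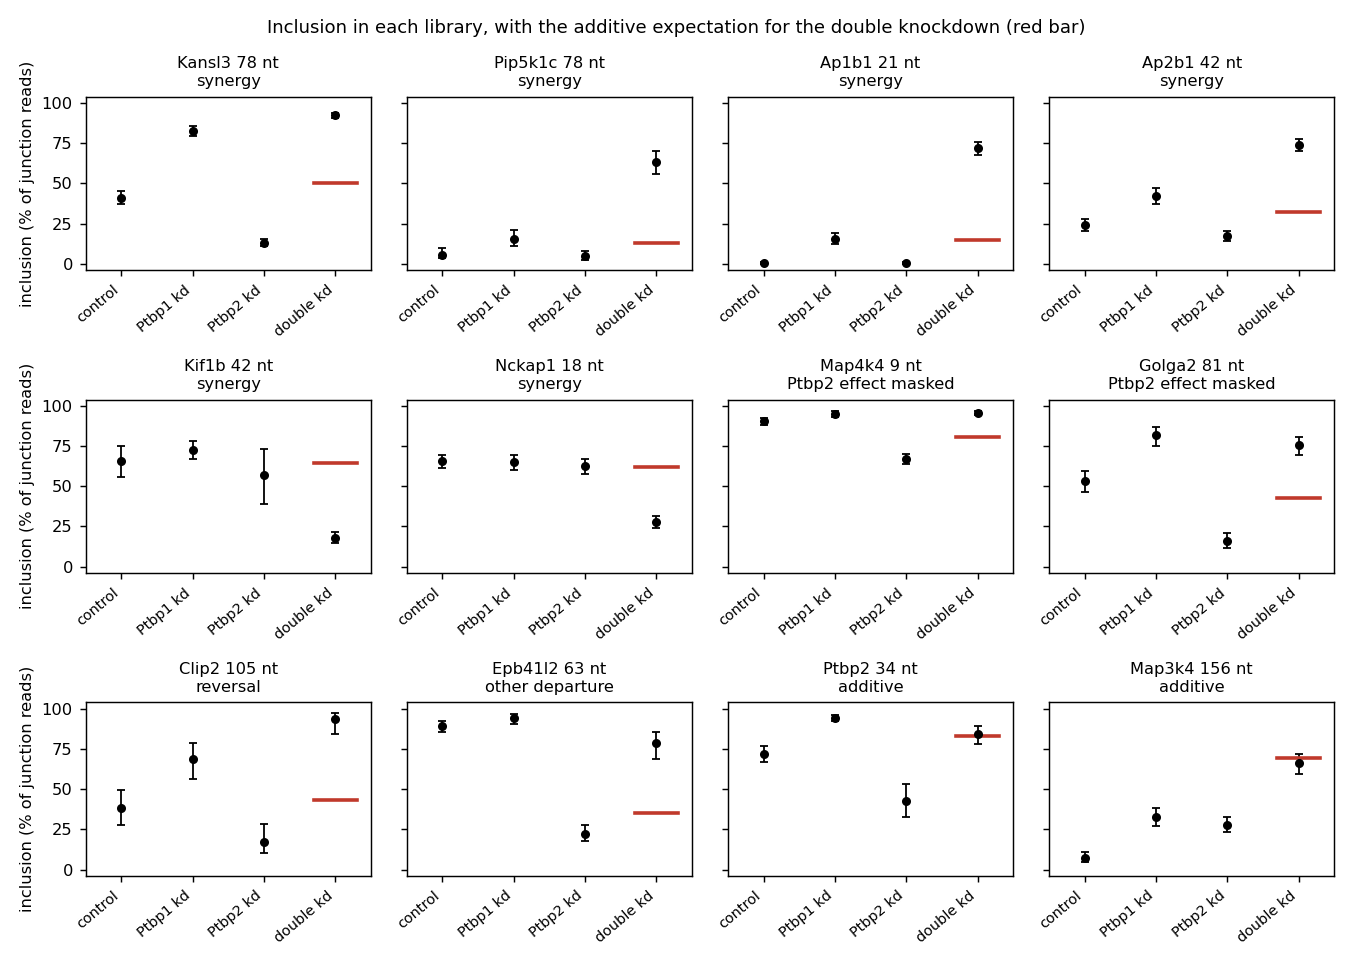
Inclusion (% of junction reads) of 12 exons in each library; points are 1 library each with 95% Wilson intervals for counting error, and the red bar is the additive expectation for the double knockdown. Ap1b1 reached 71.8% against 15.1% expected, while the Ptbp2 exon at 84.5% lay close to its expectation of 83.0%.

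A masked Ptbp2 effect was found in 60 exons (0.0599%), 51 above additivity. In those 51 inclusion fell by 1 or more when Ptbp2 was knocked down alone and moved by under 0.5 when it was knocked down in cells with low Ptbp1. In 12 of the 60 the Ptbp2 knockdown alone stood apart, and a masked effect cannot be told apart there from 1 deviating library. Map4k4, a kinase of the stress-activated MAP kinase route, had a 9-nt exon at 90.6% in control, 95.2% with shptbp1, 67.3% with shptbp2 and 95.9% with both. Golga2, a Golgi tethering protein, had an 81-nt exon at 53.4%, 82.0%, 16.0% and 75.6%. Both returned to the level of the Ptbp1 knockdown in the double knockdown. Ppfibp2, a liprin of adhesion and presynaptic sites, had a 33-nt exon at 3.97%, 47.1%, 0.89% and 58.8%. In percent this exon moved more with Ptbp1 low, and upward, so masking holds for it on the logit scale only. Atg16l1, needed to attach lipid to LC3 in autophagy, had a 57-nt exon at 39.3%, 58.3%, 15.5% and 62.3%. The exon of 147 nt in Numb, an inhibitor of Notch, went the other way at 20.2%, 13.4%, 46.1% and 14.0%, so that only the Ptbp2 knockdown was high.

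Masking of the Ptbp1 effect was less frequent, with 20 exons (0.02%), and in 7 exons both effects were masked (0.00699%), 4 of these with the control alone apart. Tpm1, a tropomyosin that stabilizes actin filaments, had a 79-nt exon at 93.0%, 68.5%, 85.3% and 82.9%, and its interval of 0.02 to 2.91 nearly reached 0. The intervals of this class were wide: Ctbs, a lysosomal chitobiase, had a 139-nt exon at 68.4%, 41.0%, 52.1% and 51.8% with a departure of 1.10 (0.17 to 2.03). In the varying exons that Ptbp1 loss lowered by 1 or more, 338 in number, the median Ptbp1 effect was -1.48 with Ptbp2 present and -0.76 with Ptbp2 low. In the 431 that Ptbp1 loss raised by 1 or more it was 1.5 with Ptbp2 present and 1.91 with Ptbp2 low. Both sets were picked by the Ptbp1 effect with Ptbp2 present, and the median departure was 0.66 in the lowered and 0.34 in the raised set, beside 0.27 over all varying exons, so nothing is read from these values.

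Reversals numbered 42 exons (0.0419%), 33 above additivity, and the median over the upward ones of the smallest junction read number was 55. This class depended on the settings: it held 22 exons with 50 or more reads in each library, 5 in percentage points, 12 with an interval that leaves 1 in 1000 outside, and 146 by the deposited SpliceTrap ratio. Clip2, a microtubule plus-end protein of neurons, had a 105-nt exon at 38.0%, 68.5%, 17.5% and 93.4%. Loss of Ptbp2 moved it by -1.04 on the logit scale with Ptbp1 present and by 1.78 with Ptbp1 low. Tbc1d24, a TBC-domain protein of synaptic vesicles, had an 18-nt microexon at 74.1%, 88.9%, 31.2% and 97.8%, with 27 to 45.5 junction reads. Both therefore went down and then up with Ptbp2 loss, according to whether Ptbp1 was present.

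The remaining 138 departing exons (0.138%) had no named class, and they included the 6 departing exons of the membrane skeleton list. Epb41l2, a protein 4.1 family member that links spectrin and actin to the membrane, had a 63-nt exon at 89.6% in control, 94.2% with shptbp1, 22.3% with shptbp2 and 78.7% with both. Dst, a cytoskeletal linker, had an 18-nt exon at 93.7%, 94.3%, 34.9% and 67.5%. In both exons the Ptbp2 knockdown alone gave the lowest inclusion, and lowering Ptbp1 as well brought part of it back. Itga6, the laminin receptor subunit, showed the same order for a 130-nt exon at 86.2%, 91.7%, 28.7% and 81.3%, against 41.3% expected. Ank3, the ankyrin of axon initial segments, had a 218-nt exon at 80.6%, 79.3%, 92.2% and 63.3%, below its expectation of 90.9%. Departing exons lay in 5 of 15 membrane skeleton genes (33.3% beside 3.63% over all named genes). These genes have 576 measured exons, and of the 26 that varied 23.1% departed, beside 15.1%.

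Additive exons give the contrast. By the rule 990 exons were additive (0.988%), but most of those are included almost always and move by fractions of a point. With a range of 10 points or more there were 151: 61 with both single knockdowns down, 37 with both up, and 36 with Ptbp1 loss up and Ptbp2 loss down. The 34-nt exon of Ptbp2 itself (chr3:119427530-119427563), the exon through which Ptbp1 limits Ptbp2, was at 72.2%, 94.5%, 42.7% and 84.5%, against 83.0% expected. Its departure was 0.09 (-0.60 to 0.79). The 34-nt exon of Ptbp3 was at 28%, 57.5%, 30.6% and 77.4%, and its departure of 0.78 had an interval that held 0. Abi2, an adaptor of the WAVE complex, had an 84-nt exon at 0.23%, 6.12%, 2.21% and 30.8%, which looks like synergy in percent but is additive on the logit scale (27.9% expected). A 156-nt exon of Map3k4, a MAP kinase kinase kinase, rose to 32.4% and 27.9% from 7.46% in the single knockdowns and to 66.2% in the double knockdown, against 69.5% expected. Downward additivity was seen for Gse1, a chromatin co-repressor protein, with a 108-nt exon at 99.6%, 92.6%, 97.5% and 69.9%, and for Mavs, the antiviral signalling adaptor, with a 178-nt exon at 94.6%, 77.7%, 83.5% and 46.7%.

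**Figure D3:**
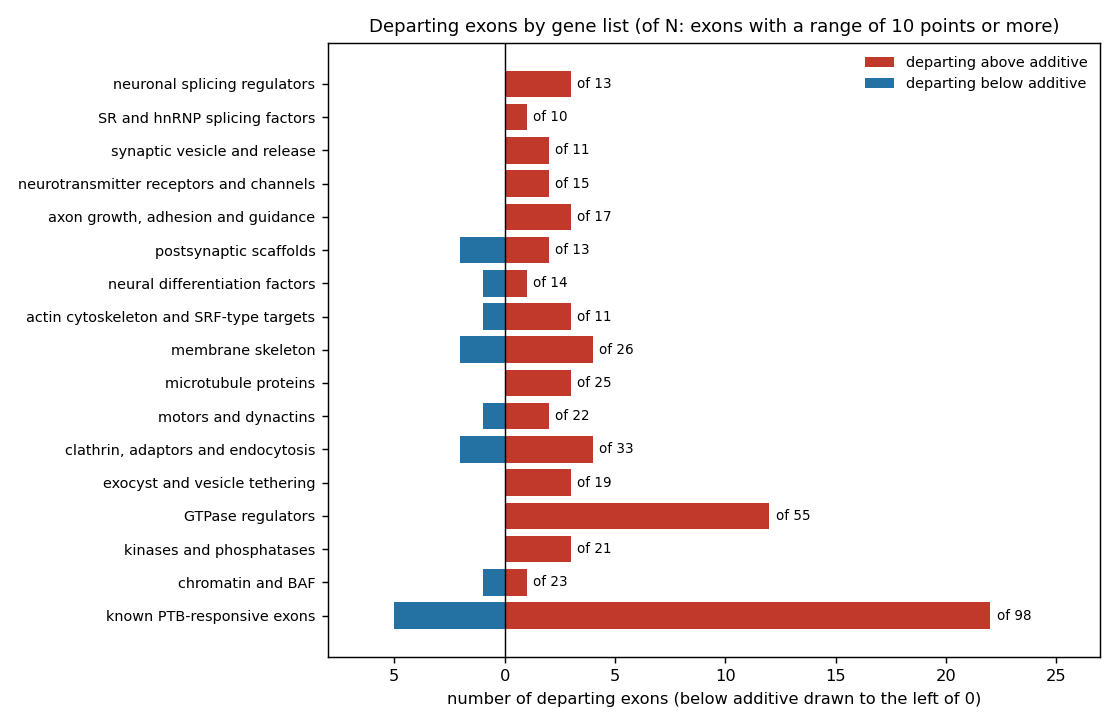
Number of departing exons in each gene list with 10 or more varying exons, above additivity to the right and below to the left, with the number of varying exons beside each bar. GTPase regulators held 12 of 55, all to the right, and known PTB-responsive genes 27 of 98.

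Genes on the list of known PTB-responsive exons held 27 departing exons of 98 varying ones (27.6% beside 15.1% over all named genes), 22 above and 5 below, in 21 of 65 genes (32.3% beside 3.63%). The list includes genes chosen with earlier results of these data known, so its share is not independent. Of the 27, 12 were synergistic and 12 had no named class.

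Gene levels behaved differently from exons. Observed and expected levels in the double knockdown correlated across genes (Pearson r 0.99), and 91.1% of genes lay within 1.5-fold of additivity. Neither value measures additivity. Levels differ far more between genes than between libraries, and the Ptbp1 effect was within 0.5 for 8741 of the 10875 genes. Of 10875 genes 168 departed (1.54%), 23 above (0.211%) and 145 below (1.33%), so the direction was mostly opposite to that of exons. Genes below additivity were weakly expressed, with a median of 2.36 CPM beside 40.1 over all genes and 16.7 for those above. They were also richer in GC, at a median of 53.8% of the transcript beside 49.6%. Across genes the departure correlated with GC content (Spearman rho -0.47) and with abundance (rho 0.32), and the median departure ran from 0.26 in the GC-poorest decile to -0.25 in the GC-richest. With the libraries centred by GC content 11 genes lay above and 129 below, and 118 of the 168 were shared, while centring by abundance gave 40 above and 80 below. From the deposited FPKM, 290 genes lay above and 300 below, with 52 of the 168 shared. Scaling by total reads moved the median departure from 0.07 to -0.05 and gave 12 above and 215 below. The part of library composition in the gene departures was not tested.

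**Figure D4:**
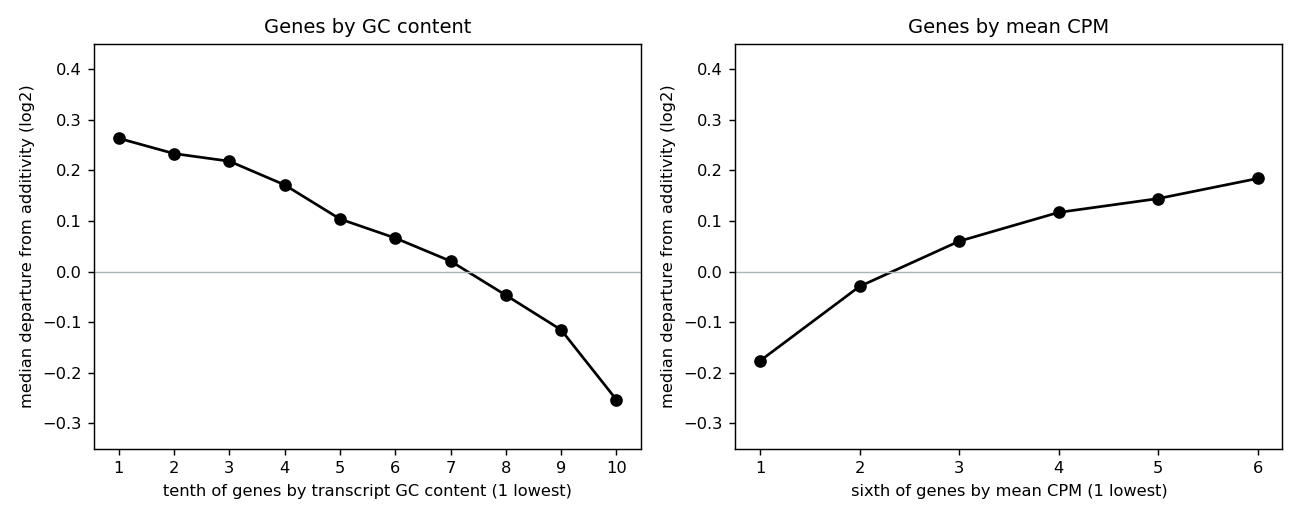
Median departure of gene levels (log2) in 10 groups of genes by transcript GC content and in 6 by mean CPM, all 4 libraries. It falls from 0.26 to -0.25 with GC content and rises from -0.18 to 0.18 with abundance.

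Synergy at gene level was rare: 5 genes (0.046%), with no reversal (0.0%). Fam120c, a member of the FAM120 family, was at 27.6 CPM in control, 45.7 with shptbp1, 13.9 with shptbp2 and 70.5 with both, against 23.1 expected. The departure was 1.60 (1.53 to 1.67), and 1.48 after centring by GC content. Mov10, an RNA helicase of the microRNA and antiviral machinery, had the mirror image at 47.1, 31.8, 72.3 and 21.3 CPM, against 48.9 expected. Both therefore had single effects of opposite sign and a double knockdown past the Ptbp1 knockdown.

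A Ptbp2 effect that was present alone and masked under low Ptbp1 was found in 28 genes (0.257%), 7 above and 21 below. In 2 of the 28 the Ptbp2 knockdown alone stood apart, and a masked effect cannot be told apart there from 1 deviating library. Glycolysis and its control gave an example above: Pdk1, the kinase that keeps pyruvate out of the mitochondrial cycle, was at 14.2, 9.78, 5.52 and 12.6 CPM, against 3.78 expected. Bnip3, a mitochondrial protein induced with glycolytic genes in low oxygen, was at 67.0, 32.3, 35.1 and 42.3 CPM, against 16.9 expected. It counted as a masked Ptbp1 effect. The glycolysis list, of which 24 genes were measured, had a median departure of 0.24 beside 0.07 over all genes, 2 members above (beside 0.211% of all genes) and none below. Its median level was 229 CPM, and in the highest of 6 groups of genes by mean CPM the median departure was 0.18. Syn2, a synapsin of synaptic vesicles, was at 225, 196, 110 and 232 CPM. Only the Ptbp2 knockdown was low for Syn2, which cannot be told apart from a deviation of that library. The list for synaptic vesicles and release, with 30 genes measured, had 1 member above, again beside 0.211%, and a median of 0.17. Its median level was 56.3 CPM, and the group of genes from 40.1 to 69.6 CPM had a median departure of 0.12.

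Genes below additivity with a masked Ptbp2 effect rose under Ptbp2 loss alone. Id4, an inhibitor of neural differentiation factors, was at 11.9 CPM in control, 13.6 with shptbp1, 31.9 with shptbp2 and 16.6 with both, against 36.5 expected. Ddc, which makes dopamine and serotonin from their precursors, was at 7.23, 14.4, 19.8 and 18.8 CPM. Radil, a Rap effector of cell adhesion, was at 5.99, 9.94, 16.7 and 11.4 CPM, and Acvr2b, an activin receptor, at 6.74, 7.20, 14.1 and 6.62 CPM. For Acvr2b only the Ptbp2 knockdown was high, and for Ddc all 3 knockdowns were above control, with the double slightly under the Ptbp2 knockdown.

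**Figure D5:**
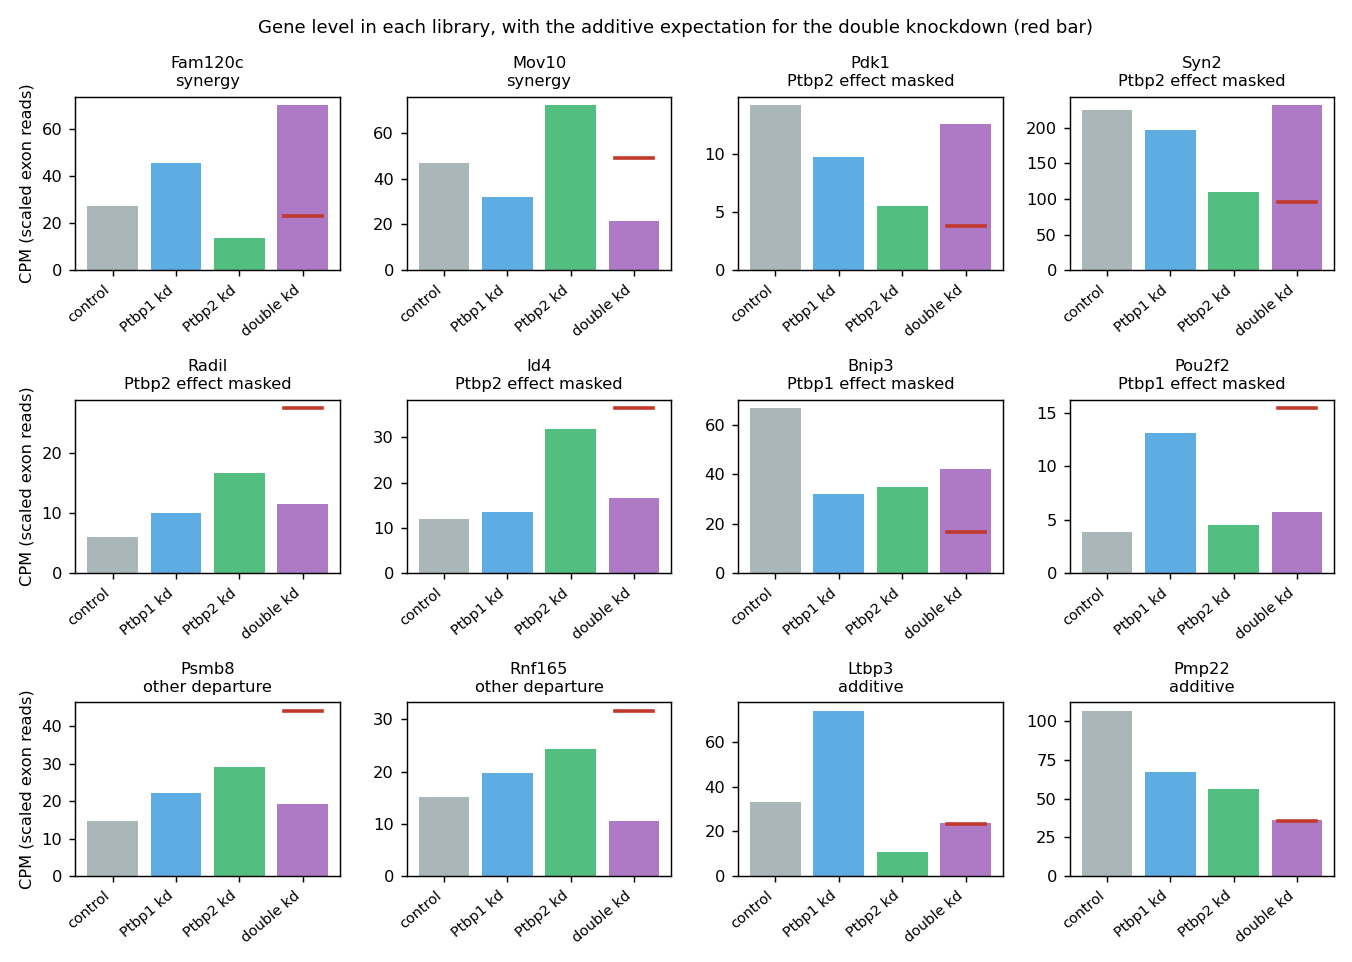
CPM of 12 genes in each library (1 library per bar, no replicate error), with the additive expectation for the double knockdown as a red bar. Fam120c stood at 70.5 CPM against 23.1 expected, and Pmp22 at 36.0 CPM against 35.3.

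Masked Ptbp1 effects numbered 41 genes (0.377%), 40 of them below. The count was 80 with scaling by total reads, 63 by the upper quartile, 18 centred by abundance, 17 with a pseudocount of 1 CPM and 7 at a mean of 5 CPM or more. In 12 of the 41 the Ptbp1 knockdown alone stood apart, which cannot be told apart from a deviation of that library. Pou2f2, a POU-domain transcription factor, was at 3.84, 13.1, 4.54 and 5.70 CPM. Iglon5, a neural adhesion protein, was at 4.58, 12.8, 7.39 and 7.81 CPM. In both, the Ptbp1 knockdown was the highest library, and lowering Ptbp2 as well brought the level closer to control. In the double knockdown Pou2f2 stayed 1.47-fold and Iglon5 1.69-fold above control. In 9 genes both effects were masked (0.0828%), and in 6 of these the control alone was apart, as for Oas1b, an antiviral sensor of double-stranded RNA, at 1.95, 5.36, 5.05 and 5.01 CPM. The other 85 departing genes (0.782%) had no named class; among them Rnf165, a ubiquitin ligase of motor axon growth, was at 15.2, 19.8, 24.3 and 10.5 CPM, higher than control in each single knockdown and lower in the double. Plppr3, a membrane protein of growing axons, followed it at 5.36, 7.94, 8.67 and 3.57 CPM.

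By function, the interferon and double-stranded RNA response stood lowest among the lists with 20 or more genes measured. Of its 21 measured genes 5 departed below (beside 1.33% of all genes) and none above, and the median departure was -0.52 beside 0.07 over all genes (-0.55 beside 0.00 after centring by GC content). These are weakly expressed genes with a median of 14.7 CPM. Among the departing members the mean was 3.60 CPM for Ifih1, 3.35 for Oasl2, 1.54 for Usp18, 1.20 for Rsad2 and 21.3 for Psmb8. Of the 1813 genes with the lowest means, from 1.00 to 7.73 CPM, 116 departed below, a larger share than the 1.33% over all genes. Psmb8, a subunit of the immunoproteasome, was at 14.6, 22.2, 29.2 and 19.2 CPM, against 44.2 expected. Ifih1, the sensor MDA5, was at 2.30, 2.94, 5.87 and 3.31 CPM. For both, the double knockdown came closer to control than the Ptbp2 knockdown did. Oasl2 and Usp18, both interferon-induced, departed by -1.22 and -1.28.

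The 12 N2A neuroblastoma markers had a median departure of -0.26, with 3 above 0 and none departing. Neurotransmitter receptors and channels had a median departure of -0.06 in 24 genes, axon growth and guidance -0.03 in 28, and catecholamine and sympathetic identity -0.21 in 14 with Ddc the only departing gene (beside 1.33% of all genes below). Fatty acid synthesis and desaturation had a median of 0.34 in 17 genes, with 15 above 0 and none departing, and cholesterol synthesis 0.17 in 22. Ribosomal proteins were at -0.04 in 43 genes. Growth factor and cytokine signalling had 2 of 35 below, beside 1.33%, Smad7 and Cish, feedback inhibitors of TGF-beta and of cytokine signalling. Smad7 was at 30.5, 52.1, 41.3 and 32.4 CPM, so each single knockdown was above control and the double was near it.

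Additive genes numbered 137 (1.26%), and in 96 of them Ptbp1 loss was up and Ptbp2 loss down. Ltbp3, which stores latent TGF-beta in the matrix, was at 33.3, 73.9, 10.5 and 23.8 CPM, against 23.5 expected. Pmp22, a myelin membrane protein, was at 107, 67.3, 56.0 and 36.0 CPM, against 35.3 expected. Stmn2, a microtubule regulator of growing axons, was at 174, 112, 114 and 72.4 CPM, against 74.0 expected. Observed over expected was 1.01 for Ltbp3, 1.02 for Pmp22 and 0.98 for Stmn2, whether the single effects pulled together or apart. Trp53inp1, a p53 target, was at 3.37, 11.8, 1.01 and 3.29 CPM.

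There were 355 genes with a departing exon and 168 departing genes, and 3 were in both, Ndrg2, Pla2g6 and Syn2 (0.845% of the former and 1.79% of the latter). A measured cassette exon was present in 69 of the departing genes (41.1%) beside 89.9% of all measured genes, and a varying one in 14. The 3 shared genes are therefore 3 of 69, near the 3.63% of all named genes that had a departing exon.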

How the data were processed

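The data were 4 RNA libraries of N2A cells, 1 per group. Per the submitters' processing notes reads were handled with CASAVA, TopHat and Cufflinks on mm9, with versions not given in the sources used here. Per the file headers, the deposited SpliceTrap tables list exon trios with counts of reads across 3 junctions, coverage of each exon (a signal from which read numbers were recovered, whole for 100% of values within 0.02) and an inclusion ratio, which is a fraction. The deposited FPKM was not per M and was divided by its library sum before use as an alternative.

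Trios were named by structure from GENCODE vM21 (95.0% of 218362). A read on overlapping exons can count more than once. Exon reads per gene, with libraries scaled by the median of ratios, entered as log2(CPM + 0.1). Inclusion used the mean of both inclusion junctions with 0.5 reads added; 1 trio per exon was kept. Single values were computed with Python 3.11.15 and pandas 2.3.3, and the scripts were tested on simulated data. With 1 library per group no test was run. Named genes were, per class and direction, the 4 with the largest departure, at 3 CPM or more and with their median over exons past 1 as well; named exons the 4 whose interval lay farthest from 0 with a range of 20 points or more; departing members of gene lists were also named. Members and lists were chosen with earlier results of these data known.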

Additional observations from a re-analysis of the deposited data

Results flagged for a closer look

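Among the exons named above and below, 7 showed a single knockdown effect of 1 or more on the logit scale whose sign was opposite in the other knockdown, and none of these differences was tested, since each group holds 1 library. The effect of the Ptbp2 knockdown on the 105-nt exon of Clip2 differed by 2.82 between cells with low and normal Ptbp1, from -1.04 to 1.78. For the 18-nt exon of Tbc1d24 the difference was 3.19, from -1.77 to 1.42. A noncoding exon of 135 nt in Ccdc97 went the other way with -2.40, from 1.22 to -1.18. The 88-nt exon of Ccdc126 had 2.28, from -1.20 to 1.07.

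Both effects changed sign for the 128-nt exon of Sh2d5, by 4.06, where inclusion was 95.7%, 76.3%, 55.0% and 95.4% with 20 to 29.5 junction reads. The same held for the 196-nt exon of Abcc10, by 4.57, and the 162-nt exon of Ocrl, by -4.21, with 22.5 to 31.5 and 21 to 41.5 junction reads. In these 3 exons the library pairs control and double on one side and both single knockdowns on the other, and each value rests on few skipping reads.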

How the results depend on the processing

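Counts of genes depended on low expression. The 168 departing genes became 73 (13 above, 60 below, 38 in a named class) with a pseudocount of 1 CPM, and 59 (42 below, 27 in a named class) with a mean of at least 5 CPM. With no filter beyond 1 read they became 575 (55 above, 520 below, 280 classed), and at 1.5-fold 971 (390, 581 and 527). The deposited FPKM gave 590 (290, 300 and 372). Genes above additivity, 23 as reported, were 12 with total reads (128 classed beside 83), 14 with the upper quartile, 39 by the median over exons, 36 by junction reads and 11 centred by GC content. Centred by abundance there were 40 above and 80 below. Genes below outnumbered those above under each of these.

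For exons, the counts of 402 (313 above, 89 below, 264 classed) became 1372 (1147, 225 and 885) without a minimum range, 94 (70, 24 and 41) at a threshold of 2, 253 (207, 46 and 170) with a 99% counting interval, and 140 (124, 16 and 105) with 1 in 1000 outside. The SpliceTrap ratio gave 184 below and 442 classed. A minimum of 50 reads, a pseudocount of 0.1, either junction alone and percentage points kept all 4 counts within 1.5 times, and with percentage points 221 of the 402 were shared and reversals fell from 42 to 5. Exons above outnumbered those below under every exon alternative. Of the single exons named here, 2 reversed: the 33-nt exon of Camsap1 was at -2.38 in percentage points, and the 72-nt exon of Mapk10 at -0.030 by the SpliceTrap ratio. No named gene reversed, but 218 of 619 values of named genes under the alternatives left their counting interval, against 9 of 898 for exons. Centring by GC content or abundance and the stricter intervals were chosen after seeing the data. No paired analysis was possible because each group holds 1 library. Depth limits exons near 0 or 100% inclusion, where few reads set the logit.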
